A study of Mus musculus with 8 samples.

Results

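Bulge cells of the mouse hair follicle were sorted by the activity of an Axin2-LacZ reporter, and the transcriptomes of the LacZ-positive and the LacZ-negative cells were compared. These are 2 of the 8 samples of the series, both RNA sequencing libraries, chosen by their labels. Both came from untreated male C57BL6 mice of day 24 and of the genotype Axin2LacZ/+, so all cells of both groups carried the reporter allele. Back skin was taken at the turn from telogen, the resting phase of the follicle, to anagen, its growth phase, and cells were separated by fluorescence-activated sorting for β-galactosidase activity, which the labels call the FASC-Gal method. Each population has 1 library, and the labels do not say whether it came from 1 mouse or a pool. No difference below therefore has a replicate check, and no test was possible. FPKM keep no fragment counts, so the depth of neither library is known. Of 28792 gene symbols, 10956 were compared: those with 1 or more FPKM in either library (fragment counts divided by transcript length and by the mapped fragments of the library). Names of small RNAs, clones, Gm and Rik genes were left out, as were 5 genes listed at 0 in 1 library.

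In the canonical Wnt pathway, a ligand binds a Frizzled receptor with an LRP co-receptor, which spares β-catenin from destruction and lets it act with TCF/LEF factors on target genes. Axin2 is one of these target genes and encodes a scaffold of the destruction complex, so it limits the signal that induces it. The bulge holds the slow-cycling stem cells of the follicle, and new growth starts from the cells at its base, the hair germ, as Wnt signals increase and BMP signals decline. The comparison asks what else distinguishes bulge cells with reporter activity from those without it.

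Differences are given as the log2 of (FPKM + 1) in LacZ-positive cells over LacZ-negative cells, which understates the differences of low genes. Values of 1 and -1 are called the 2-fold line. Of the 10956 genes, 392 were past this line on the side of LacZ-positive cells (3.58%) and 189 on the other (1.73%). The median was not at 0: it was -0.13 for all genes, and -0.17 for genes of any name with 5 or more FPKM in both. Centred on the latter, the counts were 548 higher (5.0%) and 98 lower (0.894%). Each list's median is therefore given as deposited and after this centring. Counted by any amount, 64.1% of the genes were lower in LacZ-positive cells (7018) and 35.9% were higher (3938), so a list with about this share of lower members does not stand apart from the rest. Just above the line of 1 stood Fanci (1.003) and Diras2 (1.003), and just under it Slc25a45 and Slc37a2 (both 0.998). Chst2 and Smad9 (both -1.002) were just past the lower line, and Copz2 (-0.999) just short of it.

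Mitotic genes, keratinocyte differentiation genes and genes of the upper follicle were higher in LacZ-positive cells. BMP target genes, several matrix and growth factor binding genes, and part of the bulge and hair germ genes were lower. Of 52 mitosis genes, all measured, 49 were higher and 44 past the 2-fold line. Of 27 measured genes of the spinous layers and cornified envelope, 24 were higher and 16 past the 2-fold line. Of 12 genes of the BMP response, 10 were lower and 7 past the 2-fold line. Within either population, fewer cells of a kind and less RNA per cell cannot be told apart.

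**Figure D1:**
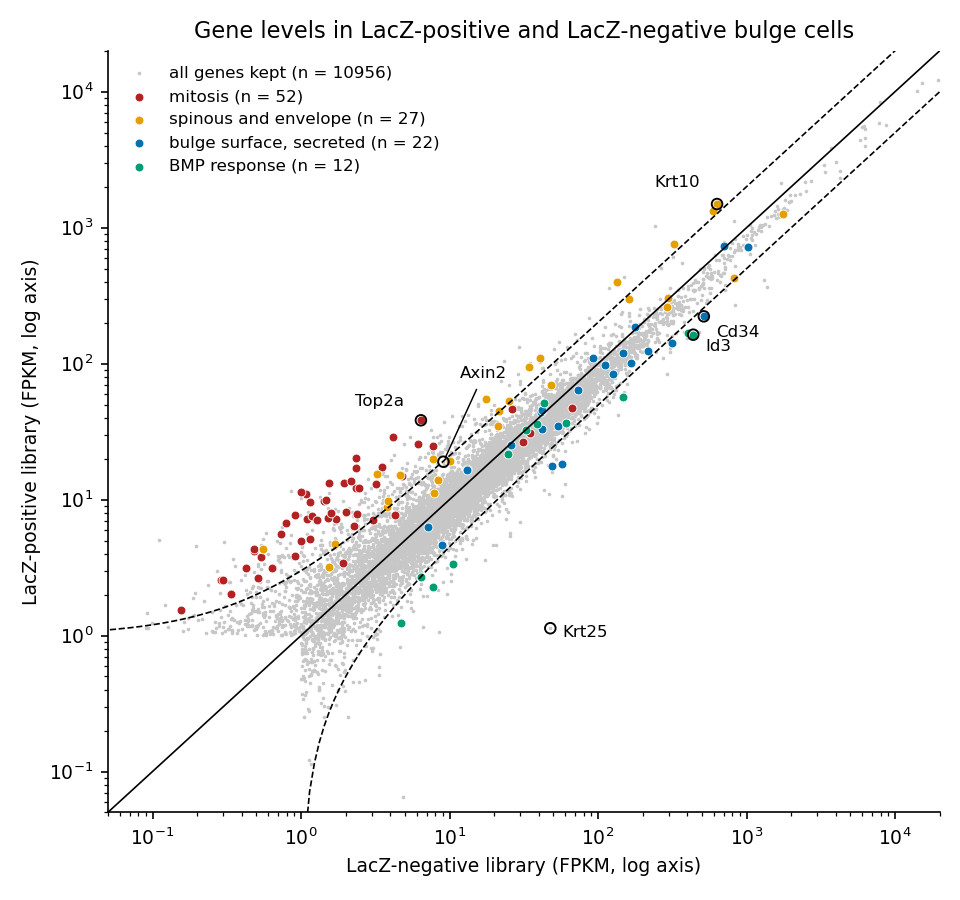
Level of each of the 10956 genes in the LacZ-negative library (horizontal) and the LacZ-positive library (vertical), in FPKM on log axes, with 4 gene lists in colour and 6 genes ringed. The solid line marks equal levels and the dashed lines a log2 difference of 1 and -1 on the (FPKM + 1) scale. Most mitosis genes (44 of 52) lie above the upper line at low levels, 16 of 27 differentiation genes lie above it at low and high levels, and 7 of 12 BMP response genes lie beyond the lower line.

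The sort label was checked first. Axin2 (mm9 chr11:108781662-108812097, an interval shared by 2 genes) was at 19.0 FPKM in LacZ-positive and 9.10 FPKM in LacZ-negative cells, a ratio of 2.09. Its log2 difference was 0.98, or 1.15 after centring. The sort was made on β-galactosidase activity from the Axin2LacZ allele and not on this transcript. The Axin2 value is tied to the sort, so it checks the labels and is not a result. Axin2 was detected in the LacZ-negative library too, and 3.72% of the 10956 genes had a larger difference than Axin2.

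Both libraries held the transcripts that define bulge keratinocytes. Krt5 and Krt14, the keratin pair of basal keratinocytes, were at 5693 and 2144 FPKM in LacZ-positive cells and at 8690 and 1714 FPKM in LacZ-negative cells. The integrin gene Itga6, used to sort basal cells, was at 185 and 178 FPKM. Sox9 and Lhx2, transcription factors of the bulge, were at 83.2 and 145 FPKM in LacZ-positive and at 120 and 242 FPKM in LacZ-negative cells. Krt15, a bulge keratin, was listed at 0 in the LacZ-negative library and at 5951 FPKM in the LacZ-positive one; no fold is given, since an exact 0 beside such a level can be a failed estimate.

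The listed markers of other cell types had summed levels between 1.10 and 29.5 FPKM, far below Krt5 and Krt14. Summed over 14 leukocyte genes the level was 8.90 FPKM in LacZ-positive and 4.46 FPKM in LacZ-negative cells, with none at 0 in both and Ptprc, the pan-leukocyte gene, at 0.0696 and 0.0253 FPKM. Over 9 fibroblast genes it was 22.0 and 22.7 FPKM, with Pdgfra at 0.0196 and 0.021 FPKM. Over 8 dermal papilla genes it was 6.86 and 6.09 FPKM, with Sox2 at 0 in both. The 6 endothelial genes summed to 1.23 and 1.10 FPKM. The 8 melanocyte genes summed to 29.5 and 28.6 FPKM, most from Dct and Mitf, and the 8 genes of muscle, fat and blood to 21.3 and 20.4 FPKM, most from the globin gene Hba-a1 at 20.4 and 19.2 FPKM. Trbc2, a constant gene of the T cell receptor that is in none of these lists and was singled out after its values were seen, was at 38.5 and 18 FPKM (1.06), above every listed marker, while Cd3e, a T cell gene of the leukocyte list, was at 0.210 and 0.183 FPKM.

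Most of the 15 largest differences in the direction of LacZ-positive cells were those of cell cycle genes. Ccna2 (cyclin A2), at 20.1 FPKM in LacZ-positive and 2.33 FPKM in LacZ-negative cells, had a log2 difference of 2.67. Cdk1, the kinase that drives entry into mitosis, was at 28.8 and 4.15 FPKM (2.53). Its partner Ccnb1 (cyclin B1) was at 17.1 and 2.34 FPKM (2.44), and Top2a, the topoisomerase that untangles chromosomes, at 38.3 and 6.42 FPKM (2.41). All of these were higher in LacZ-positive cells and detected in both libraries. Mki67, the source of the Ki-67 antigen of cycling cells, was at 13.6 and 2.19 FPKM (2.20). The mitosis list as a whole had a median of 1.73, or 1.90 after centring.

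Genes of several steps of mitosis were among them. Among spindle and kinetochore genes, Spag5 was at 11.3 and 0.996 FPKM, Cenpf at 11 and 1.08 FPKM, and Nuf2, a subunit of the complex that holds microtubules, at 6.77 and 0.794 FPKM. Of the checkpoint, Bub1b was at 7.66 and 0.907 FPKM, and of the exit from mitosis, Cdc20 and Ube2c, which act with the anaphase-promoting complex, were at 17.3 and 3.48 and at 13.2 and 1.93 FPKM. Racgap1, Anln and Ect2, genes of cell division proper, had log2 differences of 2.5, 2.13 and 1.81. The members that were not higher were Cdc25b, a phosphatase that activates Cdk1 (47.4 and 66.6 FPKM, -0.48), Bub3 (26.3 and 31.1 FPKM, -0.23) and Pttg1, the securin gene (30.9 and 35.0 FPKM, -0.18). These 3 had higher levels in LacZ-negative cells than any other member of the list. Beside the listed genes, the 15 largest differences included Zwilch (13.6 and 1.99 FPKM, 2.29), a kinetochore gene, the mitotic kinase gene Pbk (11.2 and 1.55 FPKM, 2.26) and the adaptor gene Grap (5.05 and 0.110 FPKM, 2.45).

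The promoters of these genes were searched for letters known from cell cycle promoters, and the stretches below were chosen because both motifs lie within 120 bases before the start and the genes are among those with the largest differences. TTTGAA is the core of the cell cycle homology region, which the DREAM and B-MYB-MuvB complexes bind, and CCAAT is the box bound by NF-Y. Both were sought on both strands, so TTCAAA and ATTGG also count. The sequences are from RefSeq, build GRCm38.p6, and read 5′ to 3′ on the strand of the gene up to the base before its start. Capitals mark the matches.

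Cdk1, chr10:69352913-69353032, minus strand: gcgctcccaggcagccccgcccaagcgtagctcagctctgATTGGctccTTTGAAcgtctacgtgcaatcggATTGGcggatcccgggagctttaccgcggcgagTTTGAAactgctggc
Top2a, chr11:99024190-99024309, minus strand: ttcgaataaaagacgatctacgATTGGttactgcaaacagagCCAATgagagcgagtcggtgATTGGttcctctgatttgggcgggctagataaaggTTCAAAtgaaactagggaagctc
Ube2c, chr2:164769809-164769928, plus strand: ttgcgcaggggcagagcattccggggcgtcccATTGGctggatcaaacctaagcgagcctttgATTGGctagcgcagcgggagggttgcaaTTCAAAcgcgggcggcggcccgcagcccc
Cdc20, chr4:118437344-118437463, minus strand: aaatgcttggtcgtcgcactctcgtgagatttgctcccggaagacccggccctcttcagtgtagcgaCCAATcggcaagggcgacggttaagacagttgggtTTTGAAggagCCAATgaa

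Over the window of 250 bases before to 50 after each start, 35 of 46 windows of the mitosis list (43 genes) held TTTGAA, or 76.1%. The share was 11.8% of the 10582 windows of the compared genes and 17.9% of all 32851 windows in the table. CCAAT was in 78.3% of the list's windows, in 37.7% of those of the compared genes and in 37.4% of all. Both were in 69.6%, 4.90% and 6.95%. The first base of the 44 TTTGAA matches in the list had a median position of -10, counted from 0 at the start with bases before it negative, and that of the 80 CCAAT matches of -69.5. Matches were counted per window, so a site that lies in several windows of a gene is counted for each of them. A match is a description of the letters and not a bound site. CCAAT was not confined to lists that were higher. In the BMP response list, mostly lower in LacZ-positive cells, 63.6% of 11 windows held CCAAT and 18.2% held TTTGAA. In the DNA synthesis list, mostly higher, these shares were 41.7% and 4.17% of 24 windows. Carrying both motifs did not go with a difference in every case: Espl1, the separase gene, and Bub3 hold both in the same 120 bases and had log2 differences of 0.60 and -0.23. Bub3 lies in an interval of the table shared by 41 genes, so its value is less certain.

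Espl1, chr15:102296173-102296292, plus strand: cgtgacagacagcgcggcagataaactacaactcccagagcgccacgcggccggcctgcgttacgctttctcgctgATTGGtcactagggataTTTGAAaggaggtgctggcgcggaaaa
Bub3, chr7:131560250-131560369, plus strand: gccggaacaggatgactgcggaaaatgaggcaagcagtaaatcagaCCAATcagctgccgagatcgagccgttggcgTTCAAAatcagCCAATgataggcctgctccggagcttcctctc

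A gene can have several windows, and the next counts take a gene as holding both motifs also where they lie in different windows. Of the 8253 compared genes with a window, 572 held both in this sense, and 10.8% of these were higher past the 2-fold line in LacZ-positive cells. The share was 3.51% of all genes with a window and 2.63% of the 4109 with neither motif. Without the genes of the 4 cell cycle lists it was 6.53% of 536 genes with both motifs, beside 2.96% of all. The shares that were lower past the 2-fold line were 1.75% with both motifs and 1.74% of all.

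Genes of DNA replication were higher by less than those of mitosis. The helicase genes Mcm2, Mcm3 and Mcm5, which license origins, were at 12.7, 11.1 and 20.6 FPKM in LacZ-positive and at 4.90, 3.62 and 6.36 FPKM in LacZ-negative cells, with log2 differences of 1.22, 1.39 and 1.55. Of 19 licensing genes, 16 were higher and 7 past the 2-fold line, with a median of 0.92 (1.09 centred). Of 22 genes of DNA synthesis, 19 were higher and 5 past the 2-fold line, with a median of 0.63 (0.80 centred). The 5 were Uhrf1, which guides maintenance methylation (15.5 and 3.50 FPKM, 1.87), the ribonucleotide reductase genes Rrm2 (1.30) and Rrm1 (1.05), the polymerase gene Pole (1.27) and the thymidine kinase gene Tk1 (1.08). Pcna, the sliding clamp, was at 113 and 76.6 FPKM (0.55). Hells, a chromatin remodeller of dividing cells in the list of chromatin regulators, was at 15.9 and 3.58 FPKM (1.89), while Dnmt1, Dnmt3a, Ezh1, Ezh2, Eed, Suz12 and Bmi1 had differences between -0.21 and 0.51.

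Regulators of the G1 phase were divided. Foxm1, a transcription factor of mitotic genes, was at 10.3 and 0.995 FPKM (2.51), and the cyclin genes Ccne1 and Ccnd2 had differences of 1.15 and 1.13. Ccnd1 (cyclin D1), also a Wnt target in many tissues, was at 36.2 and 37.1 FPKM (-0.03), Cdk4 at 231 and 272 FPKM (-0.23) and Myc at 30.3 and 39.2 FPKM (-0.36). Of 19 measured members, 13 were higher and 4 past the 2-fold line, with a median of 0.40 (0.57 centred). Of 16 genes of quiescence and CDK inhibition, 8 were higher, 8 were lower and none passed the 2-fold line as deposited. The p21 gene Cdkn1a was at 48.4 and 27.2 FPKM (0.81) and Cdkn2c at 10.6 and 5.09 FPKM (0.92), whereas the p27 gene Cdkn1b was at 99.9 and 141 FPKM (-0.49). Both directions were thus present among the inhibitors.

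**Figure D2:**
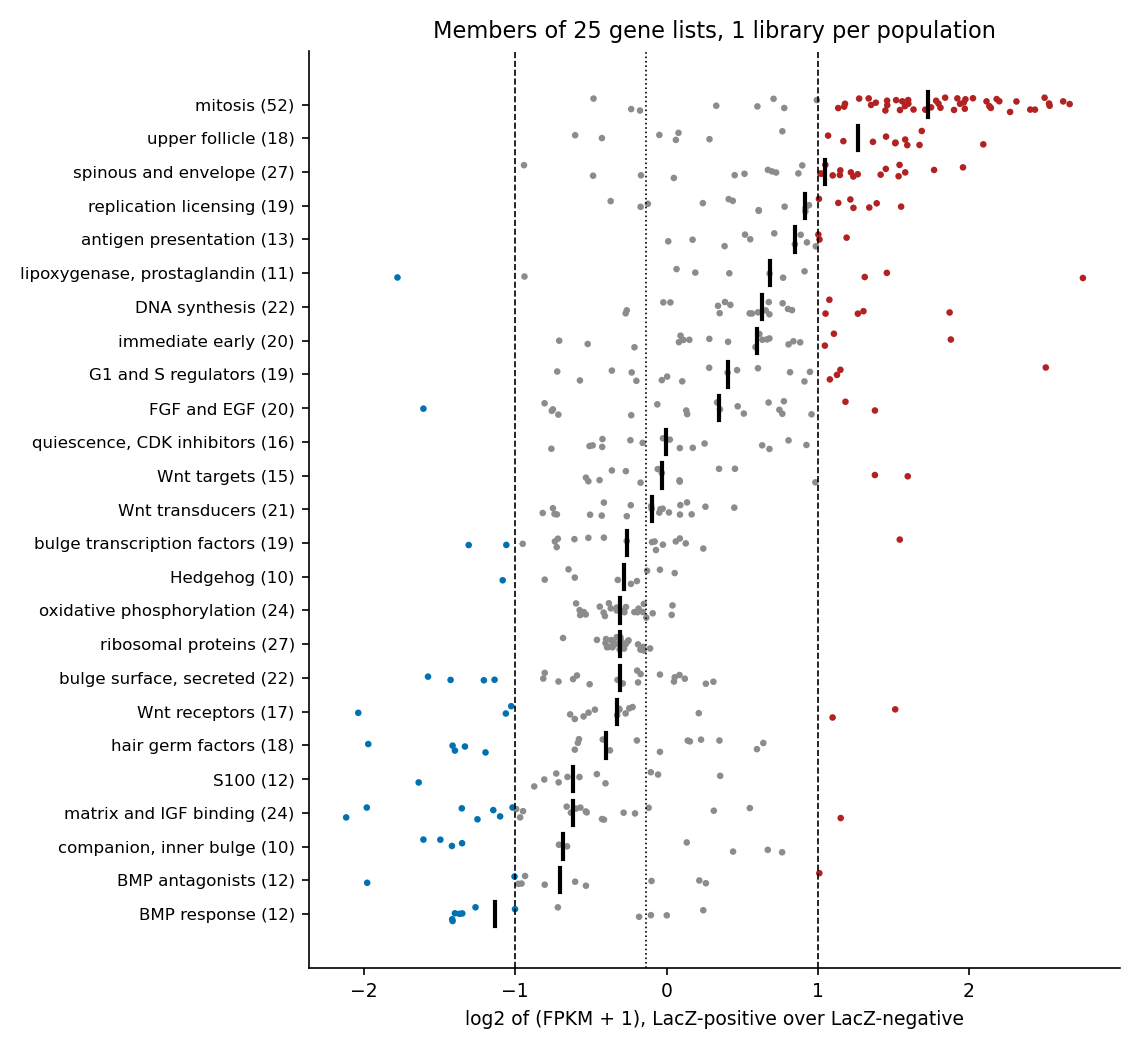
Log2 difference of each measured member (points) of 25 of the 49 gene lists, with the number measured in brackets and the list median as a black bar. Dashed lines mark 2-fold, red points are higher and blue points lower past the 2-fold line, and the dotted line is the median of all genes (-0.13). The mitosis median of 1.73 and the BMP response median of -1.13 are the ends of the order.

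Genes of the spinous layers were higher in LacZ-positive cells, some of them at very high levels. Krt10 and Krt1, the keratin pair of the suprabasal epidermis, were at 1491 and 395 FPKM in LacZ-positive and at 633 and 135 FPKM in LacZ-negative cells, with log2 differences of 1.24 and 1.54. Krtdap, a secreted product of differentiating keratinocytes, was at 1318 and 594 FPKM (1.15). The keratin gene Krt77 was at 759 and 326 FPKM (1.22). Further differences were those of the desmosomal cadherin genes Dsg1a (95.1 and 34.2 FPKM, 1.45) and Dsc1 (15.3 and 4.61 FPKM, 1.53). Both cadherins belong to the suprabasal layers.

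Envelope genes were also higher, at lower levels. Sprr1a and Sprr1b, precursors of the cornified envelope, were at 54.5 and 4.3 FPKM in LacZ-positive and at 17.6 and 0.555 FPKM in LacZ-negative cells (1.58 and 1.77). Lce1m had the largest difference of the list, at 15.5 and 3.23 FPKM (1.96). The protease gene Klk7, which loosens the outermost cells, was at 111 and 40.9 FPKM (1.42), and Flg, the filaggrin gene, at 52.8 and 25.0 FPKM (1.05). The members that were lower were 3: Calml3 (429 and 826 FPKM, -0.94), Dmkn (1259 and 1763 FPKM, -0.49) and Sfn (259 and 291 FPKM, -0.17). The list's median was 1.05, or 1.22 after centring.

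The promoters of these genes were searched for TGAGTCA, the letters of the AP-1 site, on both strands, so TGACTCA also counts. It was in 8 of 26 windows of the list, or 30.8%, in 3.75% of the windows of the compared genes and in 5.20% of all windows. The 8 windows belong to 6 of the 22 genes of the list with a window, since 3 are alternative starts of Dmkn, 2 of them only 2 bases apart. The stretches shown are those of a gene past the 2-fold line at a low level, of one at a high level, and of 2 members that did not reach the line: Ivl, the involucrin gene (19.1 and 9.997 FPKM, 0.87), and Lor, the loricrin gene (69.8 and 48.5 FPKM, 0.52). They are from RefSeq, GRCm38.p6, on the strand of the gene, and capitals mark TGAGTCA or TGACTCA.

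Sprr1a, chr3:92485882-92486001, minus strand: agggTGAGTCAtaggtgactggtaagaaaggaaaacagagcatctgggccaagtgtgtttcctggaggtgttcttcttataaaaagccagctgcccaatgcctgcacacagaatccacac
Krtdap, chr7:30787785-30787904, plus strand: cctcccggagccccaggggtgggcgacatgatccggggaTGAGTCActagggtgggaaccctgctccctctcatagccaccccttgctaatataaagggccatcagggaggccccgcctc
Ivl, chr3:92573736-92573855, minus strand: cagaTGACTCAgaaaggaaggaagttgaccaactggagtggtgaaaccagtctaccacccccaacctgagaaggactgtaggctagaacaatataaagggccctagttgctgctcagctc
Lor, chr3:92083143-92083262, minus strand: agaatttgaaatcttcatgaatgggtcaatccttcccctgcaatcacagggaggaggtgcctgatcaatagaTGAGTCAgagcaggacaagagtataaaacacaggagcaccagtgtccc

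Carriers of the motif were thus found on both sides of the line. Dmkn, lower in LacZ-positive cells, and Sbsn (305 and 295 FPKM, 0.05) hold it as well. Of the carriers in the list, only Sprr1a and Krtdap were past the 2-fold line. Among the 373 compared genes with TGAGTCA in a window, 7.24% were higher past the 2-fold line and 2.14% lower, beside 3.51% and 1.74% of all genes with a window.

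Genes of the upper follicle and junctional zone, which lie above the bulge, were higher too. Defb6, a β-defensin gene, was at 1031 and 241 FPKM (2.09) and Krt79, a keratin of the junctional zone and the sebaceous duct, at 362 and 119 FPKM (1.59). Ly6a, the Sca-1 gene of the infundibulum and epidermis, was at 73.9 and 22.2 FPKM (1.69) and Gata6, a transcription factor of the sebaceous duct, at 3.69 and 0.715 FPKM (1.45). The receptor gene Lgr6, a stem cell marker of the isthmus, was at 34.9 and 11.6 FPKM (1.51) and Lrig1, a marker of the junctional zone, at 39.8 and 23.0 FPKM (0.77). Of 18 measured genes, 15 were higher and 11 past the 2-fold line, with a median of 1.27 (1.44 centred). The 3 lower members were Sostdc1 (414 and 629 FPKM, -0.60), Cd9 (808 and 1087 FPKM, -0.43) and Krt7 (1.77 and 1.86 FPKM, -0.05). Some list members are also expressed in the epidermis, and Sprr1a stands in both lists.

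Differentiation genes outside these lists followed unevenly. Ly6d was at 436 and 149 FPKM (1.54), and Zfp750 and Grhl3, transcription factors of terminal differentiation, had differences of 1.33 and 1.21. Klf5, which stands in the list of bulge factors and is active in many epithelia, was at 13.6 and 4.0 FPKM (1.54). Among genes of adhesion to the basement membrane, Itgb4 was at 90.2 and 136 FPKM (-0.59), the laminin genes Lamb3 at 129 and 213 FPKM (-0.72) and Lama3 at 44.4 and 45.9 FPKM (-0.05), and Lama5, described with the matrix genes, had a difference of -1.10. Trp63, the p63 gene of basal cells, was at 237 and 263 FPKM (-0.15). Of 22 genes of the basal epidermis list, 14 were lower (63.6%, beside 64.1% of all genes), none past the 2-fold line. Past the line, 3 members were higher, and the highest of them was Ly6d (1.54), already given above. Its median of -0.12 became 0.05 after centring. Among 19 sebaceous and lipid genes, Fabp5 (143 and 54.9 FPKM, 1.36), Elovl4 (1.22) and Mgst1 (1.11) passed the line, while the sebocyte gene Scd1 was at 29.5 and 25.0 FPKM (0.23).

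The largest difference in the direction of LacZ-positive cells was that of Alox5ap (mm9 chr5:150076633-150099621, shared by 2 genes). Its product presents arachidonic acid to 5-lipoxygenase. Alox5ap was at 11.6 FPKM in LacZ-positive and 0.862 FPKM in LacZ-negative cells (2.75). Ptgs1, the cyclooxygenase-1 gene, was at 35.0 and 12.1 FPKM (1.46) and Alox12e at 102 and 40.6 FPKM (1.31). Hpgd, which inactivates prostaglandins, was at 11.8 and 43.0 FPKM and thus in the other direction (-1.78). Of the 11 measured genes of this lipid mediator list, 9 were higher and 2 lower, with a median of 0.68 (0.85 centred).

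Of the Wnt pathway itself, 2 target genes were higher past the 2-fold line, and the other measured targets, Axin2 apart, lay between -0.53 and 0.45. Tnfrsf19 (TROY) was at 9.63 FPKM in LacZ-positive and 2.52 FPKM in LacZ-negative cells (1.60), and Apcdd1, a membrane inhibitor of the pathway, at 26.8 and 9.71 FPKM (1.38). The ubiquitin ligase genes Rnf43 and Znrf3, which remove Frizzled receptors, had differences of 0.45 and 0.35. Lgr5, an R-spondin receptor gene and bulge marker, was at 43.9 and 41.3 FPKM (0.09), Cd44 at 108 and 112 FPKM (-0.06) and Tcf7 at 4.73 and 5.90 FPKM (-0.27, in an interval shared by 17 genes). The lowest were Bambi, a decoy receptor of the BMP and TGF-β family, at 1.01 and 1.91 FPKM (-0.53), Sox9 (-0.52), the feedback inhibitor gene Nkd1 at 1.38 and 2.24 FPKM (-0.44) and Myc (-0.36). Lef1, Nkd2, Notum, Sp5 and Dkk1 were below 1 FPKM in both libraries, with Sp5 and Dkk1 at 0 in both. Of 15 measured targets, Axin2 included, 7 were higher, 8 lower and 2 past the 2-fold line, or 3 after centring, the third being Axin2 itself. The list's median of -0.03 became 0.14 after centring, so its direction depends on the scaling.

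Wnt receptors held large differences in both directions. Fzd9 was at 5.44 and 25.5 FPKM (-2.04), Fzd1 at 23.6 and 50.3 FPKM (-1.06) and Ror2, a receptor of non-canonical signals, at 3.53 and 8.23 FPKM (-1.03). The most abundant Frizzled genes, Fzd7 and Fzd2, were at 82.4 and 72.5 FPKM in LacZ-positive and at 126 and 113 FPKM in LacZ-negative cells (-0.61 and -0.64). Fzd10 was in the other direction at 9.68 and 3.99 FPKM (1.10), as was Lgr6. Of 17 measured receptors and co-receptors, 14 were lower (82.4%, beside 64.1% of all genes), 3 past the 2-fold line, and 3 were higher, 2 past the 2-fold line, with a median of -0.33 (-0.16 centred). After centring, Fzd9 alone of the receptors remained below -1.

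Wnt ligands were at low levels. Wnt16 was at 5.02 and 1.35 FPKM (1.35) and Wnt3 at 6.44 and 2.41 FPKM (1.12), both higher in LacZ-positive cells. Wnt4, Wnt7b and Wnt10a, the 3 most abundant ligand genes, were at 17.8, 15.8 and 13.9 FPKM in LacZ-positive and at 27.8, 20.9 and 18.8 FPKM in LacZ-negative cells. Of the secreted inhibitors, Sfrp1 was at 296 and 540 FPKM (-0.86), Dkk3 at 102 and 167 FPKM (-0.71) and Sostdc1, which also binds BMPs, at 414 and 629 FPKM (-0.60). Dkkl1 was the only one of the 4 measured inhibitors that was higher, at 13.4 and 7.61 FPKM (0.74). Among 21 transducers and TCF and TLE genes none reached 2-fold: Ctnnb1 (β-catenin) was at 348 and 344 FPKM (0.02), Axin1 at 24 and 43.0 FPKM (-0.82), Tcf7l1 (TCF3) at 11.2 and 13.7 FPKM (-0.26) and Tcf7l2 (TCF4) at 13.4 and 23.0 FPKM (-0.74).

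The letters CTTTGAT or CTTTGAA, the core of the TCF/LEF site, were in 1 of 10 promoter windows of the target genes, in 10.03% of the windows of genes higher past the 2-fold line and in 5.80% of those of all compared genes. CTTTGAA contains TTTGAA, so the second form overlaps the motif of the mitosis genes. Without a match, only the absence of these letters from the window is known.

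**Figure D3:**
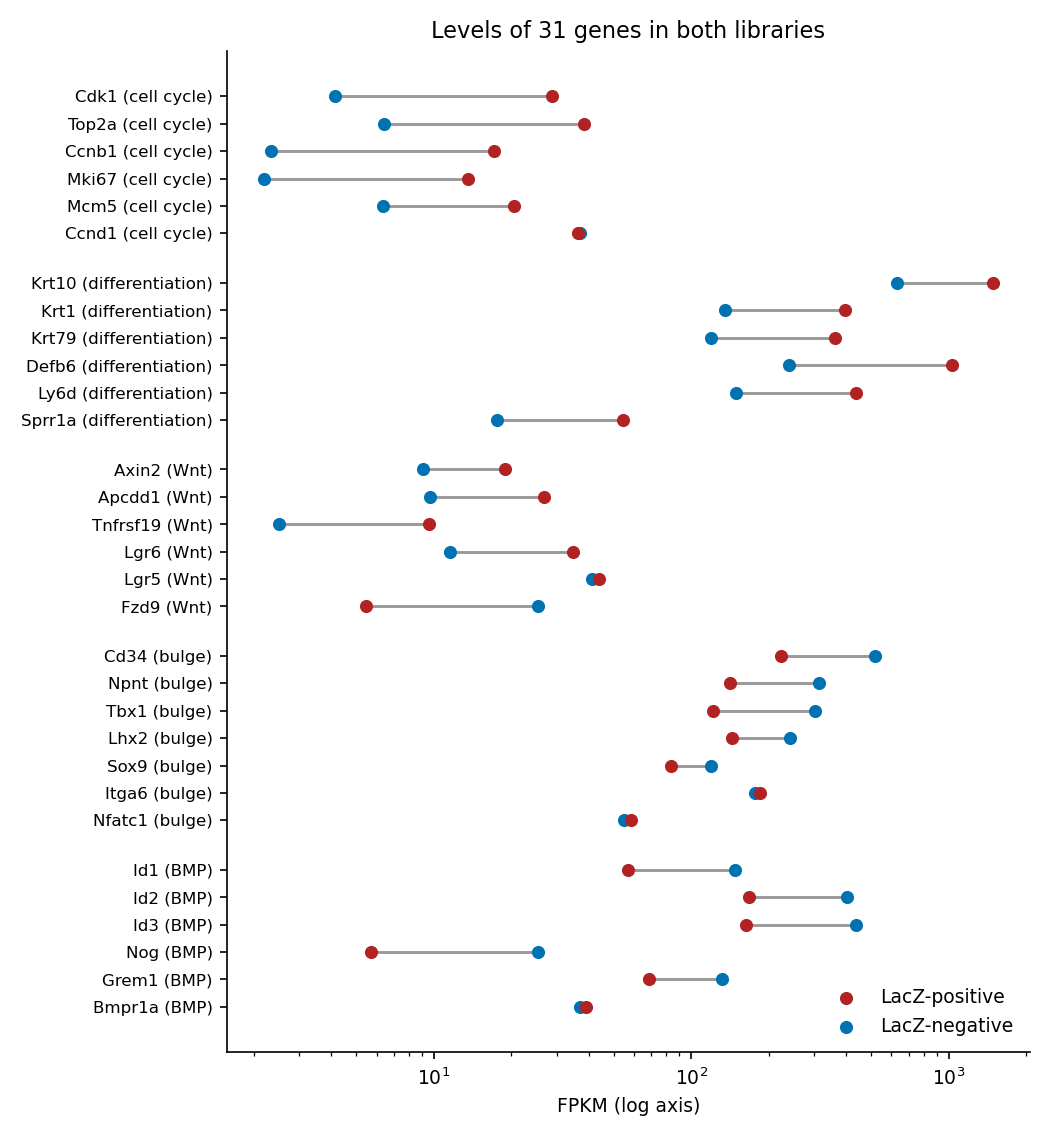
FPKM on a log axis of 31 genes in the LacZ-positive library (red) and the LacZ-negative library (blue), 1 library each, grouped by role. The red point lies to the right for the first 5 cell cycle genes and all 6 differentiation genes, and to the left for Cd34, Npnt, Tbx1 and the Id genes. Ccnd1, Lgr5, Itga6, Nfatc1 and Bmpr1a are at nearly the same level in both.

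Bulge genes were lower in part. Cd34, the surface marker of bulge stem cells (mm9 chr1:196765014-196864102, shared by 5 genes), was at 223 FPKM in LacZ-positive and 516 FPKM in LacZ-negative cells (-1.21). Npnt, which encodes a matrix ligand at the muscle attachment of the bulge, was at 142 and 313 FPKM (-1.14). Angptl7, a secreted angiopoietin-like protein gene, was at 18.4 and 56.8 FPKM (-1.58) and Ltbp2, a binding protein of the microfibrils, at 17.7 and 49.2 FPKM (-1.43). Other defining genes were level: Itga6 (0.05), Postn (730 and 706 FPKM, 0.05), Cd200 (0.12) and Fst (110 and 92.0 FPKM, 0.26). Of 22 measured surface and secreted bulge genes, 16 were lower (72.7%, beside 64.1% of all genes), 4 past the 2-fold line, with a median of -0.31 (-0.14 centred).

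Among 19 bulge transcription factors, Tbx1 was at 122 and 303 FPKM (-1.31) and Foxp1 at 10.8 and 23.5 FPKM (-1.06). Lhx2, Hopx, Sox9 and Foxc1, a factor that keeps bulge cells quiescent, had differences of -0.74, -0.73, -0.52 and -0.95. Nfatc1, also a factor of quiescence, was at 58.2 and 54.7 FPKM (0.09), and Runx1 and Gata3 had differences of 0.13 and 0.24. The list's median was -0.26, or -0.09 after centring, and centring left only Tbx1 past the line among the lower factors. Genes of the inner bulge and companion layer were divided as well: Krt6a was at 170 and 480 FPKM (-1.5), Krt75 at 2.32 and 7.87 FPKM (-1.42) and Fgf18, a signal of the resting bulge, at 7.19 and 24 FPKM (-1.61). Krt16 and Krt17, keratins of the same cells and of stressed epidermis, were at 34 and 1124 FPKM in LacZ-positive and at 21.0 and 828 FPKM in LacZ-negative cells (0.67 and 0.44).

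Transcription factors of the hair germ and matrix were lower where they belong to the Dlx and Msx families. Dlx3 was at 6.88 and 29.9 FPKM (-1.97), Dlx2 at 5.07 and 14.3 FPKM (-1.33), Msx2 at 2.26 and 7.69 FPKM (-1.41) and Msx1 at 3.38 and 10.6 FPKM (-1.40). Of the germ markers, Cdh3 (P-cadherin, 26.4 and 23.8 FPKM, 0.14) and Ptch1 (11.5 and 11.9 FPKM, -0.04) were level. Gli1 was lower, at 18.3 and 28.5 FPKM (-0.61). Trps1, a further member of the list, was level (0.15). Lef1 and Shh were under 1 FPKM in both. Of 18 measured members, 12 were lower (66.7%, beside 64.1% of all genes), 5 past the 2-fold line, with a median of -0.40 (-0.23 centred). Krt25, a keratin of the inner root sheath (mm9 chr11:99176829-99184265), had the lowest difference of all, at 1.13 and 47.7 FPKM (-4.51), while 15 of 24 genes of its list were under 1 FPKM in both libraries.

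Most listed targets of BMP signalling were lower. The Id genes, which encode inhibitors of basic helix-loop-helix factors and are direct targets, gave Id1 at 56.7 and 148 FPKM (-1.37), Id2 at 168 and 404 FPKM (-1.26) and Id3 at 163 and 438 FPKM (-1.42). Id4 was at 36.6 and 60.8 FPKM (-0.72). Hey1 (-1.35), Smad9 (-1.002) and the Msx genes completed the 7 of 12 members past the line, or 6 after centring. The list's median was -1.13, or -0.96 after centring. The signal transducers Smad1, Smad5 and Smad4, also counted in the list, were level, with differences of -0.18, -0.10 and 0.00. Gata3, a further member, was higher at 51.7 and 43.5 FPKM (0.24).

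Ligands and receptors of the BMP pathway did not share this direction. Bmpr1a was at 39.2 and 36.9 FPKM (0.09) and Bmpr2 at 10.4 and 6.19 FPKM (0.67). The ligand genes Bmp4, Bmp7 and Bmp2 had differences of 0.77, 0.58 and -0.34, at levels of 10 FPKM or less. None of the 11 measured members passed the line, and their median was 0.08 (0.25 centred). The antagonists, which bind BMPs outside the cell or block the signal within, were mostly lower: Nog (noggin) was at 5.70 and 25.4 FPKM (-1.98), Grem1 at 68.4 and 132 FPKM (-0.94), Nbl1 at 71.9 and 141 FPKM (-0.96), Smad6 at 6.17 and 13.1 FPKM (-0.98) and Smad7 at 13.7 and 28.5 FPKM (-1.01). Smad6 and Smad7 are themselves BMP targets. Htra1, the gene of a secreted protease that can inhibit signals of this family, was in the other direction at 31.7 and 15.2 FPKM (1.01), in the interval of 41 genes that also holds Bub3. Fst (follistatin) and Twsg1 were higher by 0.26 and 0.22. Of 12 measured antagonists 9 were lower (75%, beside 64.1% of all genes), with a median of -0.70 (-0.54 centred). Past the 2-fold line, 1 was higher and 2 were lower, or 1 in each direction after centring.

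Other signalling pathways held few large differences. Of the Hedgehog list, Gli1, its target gene, was at 18.3 and 28.5 FPKM (-0.61), Ptch1 at 11.5 and 11.9 FPKM (-0.04) and the co-receptor gene Cdon at 17.2 and 37.6 FPKM (-1.08, or -0.91 centred). Of the Notch list, Notch1 and Notch3 had differences of 0.44 and 0.68, the target Hes1 of -0.19 and Nrarp of 0.66. Hey1, which also stands in the BMP response list, was at 1.24 and 4.72 FPKM (-1.35, or -1.18 centred). Among the 14 measured Notch list members, only Hey1 was past the 2-fold line. The epidermal growth factor ligand genes Areg (3.47 and 0.722 FPKM, 1.38) and Epgn (7.32 and 2.66 FPKM, 1.18) were higher, beside Erbb3 at 24.7 and 14.3 FPKM (0.75). Fgfr2, at 149 and 253 FPKM, had a difference of -0.76, in the same interval of 41 genes. Cyp26b1, which degrades retinoic acid, was at 4.63 and 20.5 FPKM (-1.93), while the receptor genes Rarg and Rxra differed by -0.17 and -0.33.

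Most genes of the matrix and of insulin-like growth factor binding were lower. Myoc (myocilin) was at 13.1 and 60.3 FPKM (-2.12), Sparc, a matrix-binding protein gene, at 170 and 378 FPKM (-1.15), Col6a1 at 62.0 and 149 FPKM (-1.25) and Lama5, a laminin of the epidermal basement membrane, at 49.4 and 107 FPKM (-1.10). Of the binding proteins, Igfbp6 was at 11 and 46.6 FPKM (-1.98), Igfbp3 at 155 and 397 FPKM (-1.35) and Igfbp7 at 147 and 298 FPKM (-1.02). Igfbp2, outside the list, was higher at 2.37 and 1.12 FPKM (0.67). Of 24 measured members, 21 were lower (87.5%, beside 64.1% of all genes), 7 past the 2-fold line, or 4 after centring. The median was -0.62 (-0.45 centred). Dcn (decorin), a fibroblast gene, was in the other direction at 2.16 and 0.423 FPKM (1.15). The fibroblast genes Col1a1 and Vim were at 6.29 and 6.12 FPKM in LacZ-positive and at 13.1 and 1.82 FPKM in LacZ-negative cells, so the markers of that cell type did not move as one. Of 12 measured S100 genes 11 were lower (91.7%, beside 64.1% of all genes), 1 past the 2-fold line. Their median was -0.62, or -0.45 centred and -0.33 centred within bins of genomic span. S100a4 was at 268 and 837 FPKM (-1.64) and S100a6 at 2307 and 4231 FPKM (-0.87).

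The 15 lowest differences also held genes of none of these groups. Supv3l1, a mitochondrial RNA helicase gene, was at 10.6 and 57.4 FPKM (-2.34) and Ddit4l, an inhibitor of mTOR signalling, at 1.06 and 8.46 FPKM (-2.20). Sncg (γ-synuclein) was at 3.62 and 17.5 FPKM (-1.997), and Fam132a, a secreted factor also called adipolin, at 369 and 1373 FPKM (-1.89). The Fam132a level in LacZ-negative cells was above that of Krt10. Pcolce2, an enhancer of procollagen processing, Smoc1, a matrix protein gene, and the non-coding host gene Snhg9 had differences of -1.87, -1.81 and -1.80.

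Antigen presentation genes were higher in LacZ-positive cells without exception among the 13 measured. B2m, the light chain of class I molecules, was at 611 and 320 FPKM (0.93), H2-K1 at 238 and 145 FPKM (0.71) and the immunoproteasome genes Psmb8 and Psmb9 at 12.1 and 15.9 FPKM in LacZ-positive and at 4.76 and 7.40 FPKM in LacZ-negative cells (1.19 and 1.01). The median was 0.85 (1.02 centred), and 3 of 13 passed the line, or 7 after centring. The class II genes H2-Aa and Cd74, expressed in antigen-presenting leukocytes, were at 3.11 and 3.26 FPKM in LacZ-positive and at 1.05 and 1.30 FPKM in LacZ-negative cells. The summed leukocyte markers (8.90 and 4.46 FPKM) moved the same way, and their part in the result was not tested. Cd74 is also the highest member of that sum, so the sum is not a separate measurement. Of 20 immediate early genes, which answer growth factors and stress within minutes, 17 were higher. Fos was at 551 and 366 FPKM (0.59), Egr2 at 40.9 and 10.4 FPKM (1.88) and Fosb at 150 and 72.1 FPKM (1.05), and the list's median was 0.60 (0.77 centred). The heat shock genes did not share it, with Hspa1a at 31.8 and 40.3 FPKM (-0.33) and Hspb1 at 319 and 503 FPKM (-0.65).

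The difference between the libraries also varied with the size of the gene. Over 10 bins of genes by genomic span (8078 genes with 5 or more FPKM in both), the median log2 difference went from -0.39 at a median span of 3.01 kb to 0.0045 at 86.9 kb and -0.04 at 173 kb. Spearman's rho with span was 0.33 across genes, which are not independent replicates. Between the Ctnnb1 cKO and Het libraries of the series, which share no library with this pair, rho was -0.055 over 8165 genes, and the bins lay between 0.05 and 0.12. The part of span in the list values was not tested as a cause, but the values centred within bins can be set beside them. The median was then 1.88 for mitosis, 1.29 for the spinous and envelope list, 1.46 for the upper follicle, -0.91 for the BMP response, -0.57 for the matrix list and -0.22 for the bulge surface list.

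**Figure D4:**
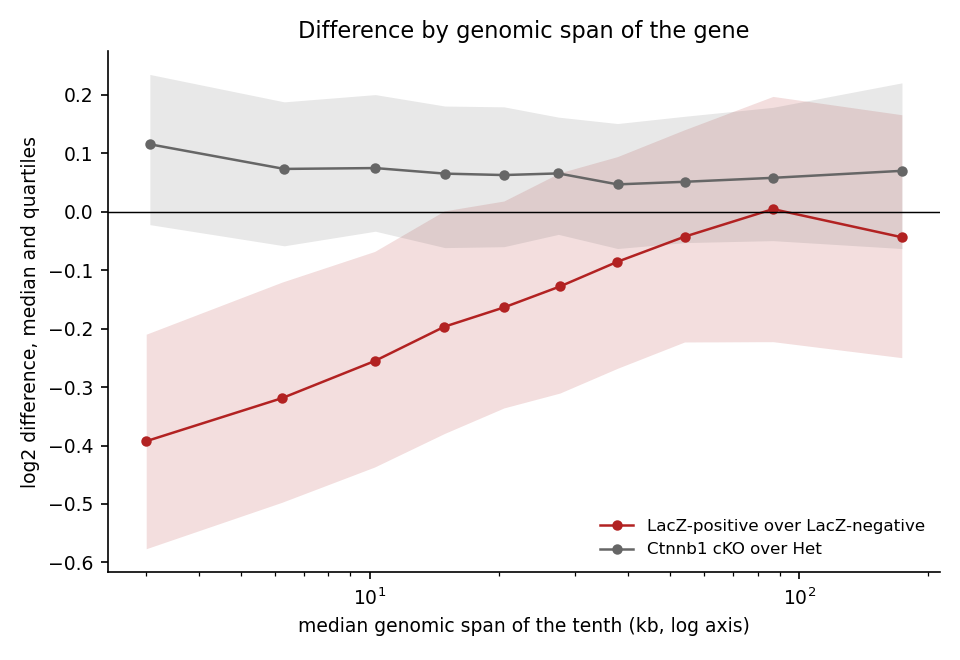
Median log2 difference (points) and the range between the quartiles (bands) of genes with 5 or more FPKM in both, in 10 bins of genomic span in kilobases on a log axis. LacZ-positive over LacZ-negative cells are in red and Ctnnb1 cKO over Het cells in grey. The red medians climb from -0.39 to 0.0045 with span and the grey ones stay between 0.05 and 0.12.

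Centring within bins of span changed the sign of the median of the ribosomal protein list and not that of oxidative phosphorylation. All 27 ribosomal protein genes were lower, with a median of -0.31 as deposited and -0.14 after centring, but 0.06 after centring within bins of span. Rps24 was at 2576 and 3384 FPKM (-0.39) and Rplp0 at 1454 and 1614 FPKM (-0.15). Of 24 genes of oxidative phosphorylation 22 were lower, with medians of -0.31, -0.14 and -0.02 on the same scales. None of these genes reached 2-fold. The abundant Krt5 (-0.61) and the reference gene Actb (-0.40) were also below the median of all genes, and Hprt and Tbp were above it (0.07 and 0.19).

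The share of genes past the 2-fold line varied with the level, and was largest at low levels for higher genes and at the highest levels for lower genes. Of the 2237 genes with a mean of 1 to 5 FPKM, 7.33% were higher past the 2-fold line and 1.88% lower. Of the 4448 genes between 5 and 20 FPKM these shares were 3.71% and 1.57%. At 20 to 100 FPKM (3380 genes) they were 1.33% and 1.63%, and at 100 FPKM or more (701 genes) 1.43% and 3.14%. Some named genes share an interval of the table with others, so that fragments of neighbours can enter their values: Ccna2, Ube2c, Cdc20, Racgap1, Ect2, Krt10 and Gata6 with 1 other gene, Top2a, B2m, Psmb9 and Cdon with 2, Foxm1, Foxp1 and Psmb8 with 3, and Bub3, Fgfr2 and Htra1 with 40. The mitosis genes mostly lay in the lower ranges and the differentiation and Id genes in the upper ones.

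The Ctnnb1 pair was set beside this one for the same lists. These cells were sorted from back skin of female C57BL6/129Sv mice of day 99 with K15CrePGR and a Rosa-YFP reporter and with 1 (Het) or 2 (cKO) floxed copies of Ctnnb1, again with 1 library per group. The 2 tables were normalised separately, so levels are not compared across them. The mitosis list had a median of 1.73 for LacZ-positive over LacZ-negative cells and of -1.10 for cKO over Het cells. Top2a, at 38.3 and 6.42 FPKM here, was at 1.11 FPKM in cKO and 11.6 FPKM in Het cells. The receptor gene Lgr6, with a difference of 1.51 here, was at 2.04 and 26.2 FPKM in cKO and Het cells (-3.16).

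Differentiation genes were divided in the Ctnnb1 pair. The spinous and envelope list had medians of 1.05 and -0.09 in the 2 pairs, and the upper follicle list 1.27 and -0.05, beside -0.13 and 0.05 for all genes. Of 26 spinous and envelope genes measured there, 11 were higher and 15 lower in cKO cells. Krt10 was at 480 and 430 FPKM in cKO and Het cells (0.16) and Krt1 at 107 and 91.6 FPKM (0.22). Several envelope genes were lower in cKO cells: Sprr1b was at 0.0362 and 7.52 FPKM (-3.04), Lce1m at 17.9 and 38.4 FPKM (-1.06) and Flg at 4.83 and 8.88 FPKM (-0.76). In families read after their values were seen, all 7 measured Lce genes and 3 of 4 Sprr genes were lower in cKO cells, with medians of -0.69 and -1.06. The BMP response list had medians of -1.13 and -0.11, with Id3 at 205 and 200 FPKM in cKO and Het cells (0.03). Immediate early genes were higher in the first library of both pairs, with medians of 0.60 and 0.98, and Fos was at 938 and 348 FPKM in cKO and Het cells.

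**Figure D5:**
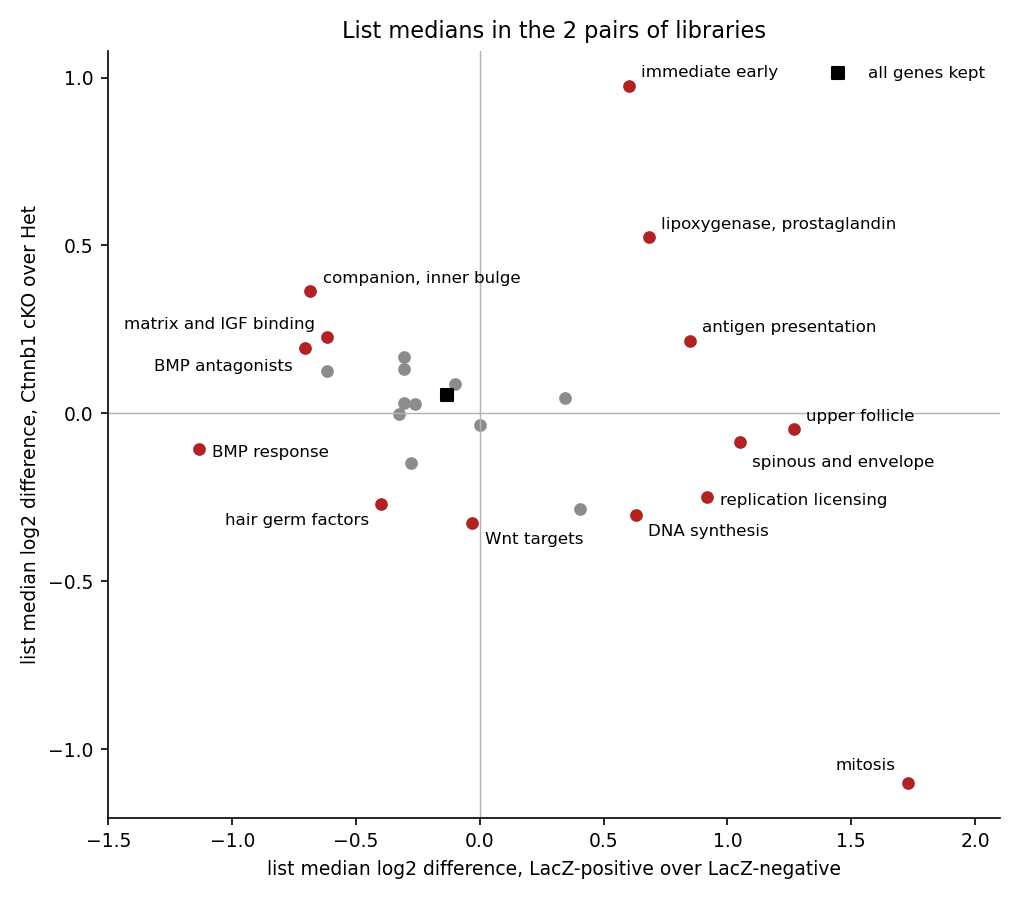
Median log2 difference of 25 gene lists in the LacZ pair (horizontal) and in the Ctnnb1 cKO over Het pair (vertical), with 14 lists named and drawn in red and all genes as a black square. The mitosis list lies at 1.73 and -1.10, the spinous and upper follicle lists lie right of 1 near 0 on the vertical axis, and the BMP response list lies at -1.13 and -0.11.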

How the data were processed

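RNA sequencing libraries of LacZ-positive and LacZ-negative bulge cells were compared, with 1 library each and groups taken from the labels. Per the labels' protocols, RNA was column-purified and libraries were made with an Illumina mRNA kit. The deposited values are FPKM per gene (per the file headers), with both libraries in 1 table. Cufflinks 2.1.1, TopHat2 2.0.4 and TopHat are listed in the submitters' processing notes, as are GRCm38 and mm9, each with no role given. The table's coordinates were taken as mm9. A deposited log2 fold change of the authors for the Ctnnb1 pair was not used. FPKM divide by the mapped fragments of a library, so features with many fragments shift all values. The transfer RNA mt-Ts1 made up 21.6% (LacZ-positive) and 28.1% (LacZ-negative) of the summed FPKM. This is not its share of fragments, since FPKM also divide by transcript length. Among 954 rows under 0.05 FPKM in both libraries, the commonest bin of ratios ran from 0.87 to 0.93. A wider window set by hand around this bin held 172 rows, with a median of 0.93. The other rows lay outside it, so this is only a rough guide to what 1 fragment was worth in either library. Absolute depth is unknown.

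Rows of the same symbol were summed (32091 rows, 28792 symbols). Of 13283 genes reaching 1 FPKM in at least 1 library, 2322 were left out by name and 5 for a 0 in 1 library. Differences are log2 of (FPKM + 1), with a line at 1 and -1, in Python 3.11.15 with pandas 2.3.3 and numpy 2.4.6. Centring used the median of 9252 genes of any name with 5 or more FPKM in both. The steps were tested on simulated data.

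The 49 gene lists (854 genes, 9 not in the table) and the members were chosen with earlier results of these data known. Named genes were Axin2, Ctnnb1, the 15 highest and 15 lowest differences of genes reaching 5 FPKM in at least 1 library, and of each list described the members past 2-fold (up to 8 a direction) and up to 6 further members with high levels or a defining role; the values of some genes under this rule are not reported here. Promoter windows came from RefSeq (GRCm38.p6); 8253 of 10956 genes matched by symbol. Alternatives were the pseudocount, minimum, scaling, row choice, names, zeros, shared intervals and, added after seeing the data, centring within 10 bins of genomic span. Samples of chromatin immunoprecipitation were not used here.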

Additional observations from a re-analysis of the deposited data

How the results depend on the processing

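With 1 library per population, these alternatives show the effect of processing and not of sampling. As deposited, 392 genes were past the 2-fold line as higher in LacZ-positive cells and 189 as lower. A pseudocount of 0.1 gave 623 and 325, and one of 5 gave 120 and 68. The number of lower genes was 98 after centring on the median, 110 under upper-quartile scaling, 86 after rescaling to the summed FPKM of the kept names, 124 with only genes alone in their interval and 96 when centred within 10 bins of genomic span, which was chosen after seeing the data. The numbers of higher genes under these 5 settings were 548, 505, 565, 275 and 541. The counts for genes alone in their interval are out of 6744 genes and not 10956, so they are not a loss at an equal total. With no minimum the numbers of higher and lower genes were 392 and 189, and with a minimum of 5 FPKM 271 and 162. With the highest row per symbol they were 390 and 188. With all names kept they were 483 and 280, and with genes at 0 in 1 library kept 393 and 193. The settings of minimum, names and zeros also change how many genes are compared.

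Of 163 named genes or list members past the line, all kept their direction under every alternative that gave a value. This was largely fixed in advance. The pseudocount, minimum, names, zeros and shared intervals cannot reverse a direction, and centring shifted each value by only 0.17. The count is thus no measure of how firm the directions are. With a pseudocount of 5, 86 remained past it, and after centring 153. The median of the Wnt target list changed sign in 5 of 12 alternatives, and that of the ribosomal proteins in 1. No paired analysis was possible because each population has 1 library. FPKM keep no counts, so counting error is unknown, and the low values of many mitosis genes in LacZ-negative cells have no interval.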

Other observations

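Gene families outside the lists above were read after their values were seen, and are given as values. All 11 measured Skint genes, which encode immunoglobulin-like proteins of keratinocytes known from the selection of epidermal γδ T cells, were higher in LacZ-positive cells, 9 of them past the 2-fold line, with a median log2 difference of 1.54 (1.71 centred). Skint7 was at 25.5 FPKM in LacZ-positive and 4.97 FPKM in LacZ-negative cells, and Skint9 at 50.3 and 15.7 FPKM. All 6 measured Ly6 genes, all 5 Sprr genes and all 3 Clca genes were also higher past the 2-fold line, with medians of 1.49, 1.58 and 1.78. Of these, Sprr4 was at 132 and 29.3 FPKM and Clca2 at 105 and 23.3 FPKM. The interleukin-1 antagonist genes Il1rn and Il1r2 were at 28.7 and 69.7 FPKM in LacZ-positive and at 5.40 and 25.3 FPKM in LacZ-negative cells.

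Hox genes, which mark position along the body, were lower in LacZ-positive cells in 22 of 23 cases, 6 past the 2-fold line, with a median of -0.69, or -0.52 centred and -0.41 centred within bins of span. Hoxb9 was at 5.18 and 15.2 FPKM (-1.39) and Hoxa7 at 34 and 83.2 FPKM (-1.27). Hoxb3 was the exception at 17.8 and 13.8 FPKM (0.34). Several Hox genes share an interval, Hoxa7 with 9 others, so these values are not independent. Of 26 measured histone genes 23 were lower, with a median of -0.31 that became 0.08 when centred within bins of span. Among abundant genes, Crip1 was at 415 and 1316 FPKM (-1.66), Prss23 at 84.3 and 290 FPKM (-1.77) and Nrtn (neurturin) at 41.8 and 135 FPKM (-1.67).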
